A study of Mus musculus with 3 samples.

Results

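The genes described here are the receptor chains and signal transducers of IL-12, IL-18 and IFNγ, namely Il12rb1, Il12rb2, Stat4, Il18r1, Il18rap, Myd88, Irak1, Irak3, Ifngr1 and Ifngr2. They were chosen as a pathway, by name, and make up 10 of the 19518 genes measured. Each was read from the probe set that lists it as the only gene, and each has 1 such probe set. The data are 3 Affymetrix Mouse Gene 1.0 ST arrays, 1 for PLZFlu/lu cells, 1 for PLZF+/lu cells and 1 for PLZF+/+ cells. PLZF, encoded by Zbtb16, is the zinc finger factor that gives NKT cells their innate-like program, and luxoid (lu) is a point mutation in its gene. The cells of all 3 genotypes were CD4+CD8α- thymocytes, sorted a second time into TRIzol, of female C57BL/6 mice 3 to 4 weeks old. The labels call them γδNKT cells. The study's methods add that every mouse lacked Rag1 and carried the Vγ1Vδ6.4 TCR transgenes, so T cells of these mice carry the transgenic receptor and cannot rearrange their own. Most but not all thymocytes of this gate express PLZF in such mice, according to the study. Neither the labels nor the methods say how many mice went into an array. The comparison asks which transcripts depend on PLZF. Since each genotype has 1 array, the differences carry no replicate error and no p-value, and a fold above 2 serves as a rule of size.

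IL-12 and IL-18 are released by dendritic cells and macrophages and let innate-like T cells make IFNγ without foreign antigen. IL-12 binds a pair of chains, IL-12Rβ1 and IL-12Rβ2, and the kinases bound to them phosphorylate STAT4. IL-18 is held by IL-18R1, which then recruits the accessory chain encoded by Il18rap, and their TIR domains engage the adaptor MyD88 and the IRAK kinases. IRAK3, also called IRAK-M, lacks kinase activity and restrains this step. IFNγ itself is bound by IFNGR1, which signals together with IFNGR2 through JAK kinases.

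Probe set intensities are on the authors' linear scale, and the array medians lay between 159.7 and 161.8. A level of 108, below which 95% of the values of 1033 olfactory receptor probe sets lie, is used as background. Zbtb16 was at 2890 in PLZFlu/lu, 6143 in PLZF+/lu and 8796 in PLZF+/+, although the mutant transcript can still hybridise, so this level is only a partial check of the labels. The defining T cell genes Cd3d, Cd3e, Cd3g and Cd247 were above background on every array. Of 7 measured macrophage and monocyte markers, 5 were below background on all arrays, Lyz2, Csf1r, Adgre1 and Cd14 among them, and the summed intensity of the list was 797 in PLZFlu/lu, 816 in PLZF+/lu and 824 in PLZF+/+. The summed intensity of 7 markers of the CD4+CD8+ thymocyte stage was 5317 in PLZFlu/lu, 4418 in PLZF+/lu and 3319 in PLZF+/+, with 4 of the 7 higher in PLZFlu/lu than in PLZF+/+, none lower and Ptcra, Cd1d1 and Rag2 equal. Cd8b1, the CD8 beta chain and the only one of the 7 past 2-fold, made up most of that difference, at 2958 in PLZFlu/lu, 2263 in PLZF+/lu and 1290 in PLZF+/+. Cd8a was at 601, 519 and 369 in the same order, while Rag1 (278, 211 and 229) and Dntt (210, 157 and 162) were lowest in PLZF+/lu. Rag1 is counted among the 4, but every mouse lacked this gene, so its signal cannot be read as a mark of that stage. Rag2 was below background on every array, so its equality carries no information. The part of CD4+CD8+ stage cells in the results below was not tested. In sorted bulk samples fewer cells of a type and less RNA per cell cannot be told apart.

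Between PLZFlu/lu and PLZF+/+ cells, 5 of the 10 genes differed by more than 2-fold, where 0.43% of all measured genes did (84 of 19518). Il12rb1, Il18r1 and Irak3 were lower in PLZFlu/lu (0.272% of all genes), and Ifngr1 and Stat4 were higher (0.159%). The genes were proposed with these differences already known, so the count describes them and is no independent sign of an excess. The gene nearest to the 2-fold line from inside was Irak3, at 2.07-fold, and from outside Ifngr2, at 1.66-fold. To any degree 7 of the 10 were lower in PLZFlu/lu, 2 were higher and 1 was equal, against 24.9%, 16.9% and 58.1% of all genes. The 7 include Il18rap, which lay below background on every array and whose direction cannot be read. Of all genes 7545 were below background on every array. Identical values on all arrays occurred for 46.8% of all genes and for 34.2% of those above background on every array. The shares of all genes given here are thus not matched for level. The median log2 difference of the 10 genes was -0.45, and that of all genes was 0.00. When PLZF+/lu was averaged into the baseline, Stat4 and Irak3 no longer passed 2-fold, with log2 differences of 0.89 and -0.73.

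**Figure D1:**
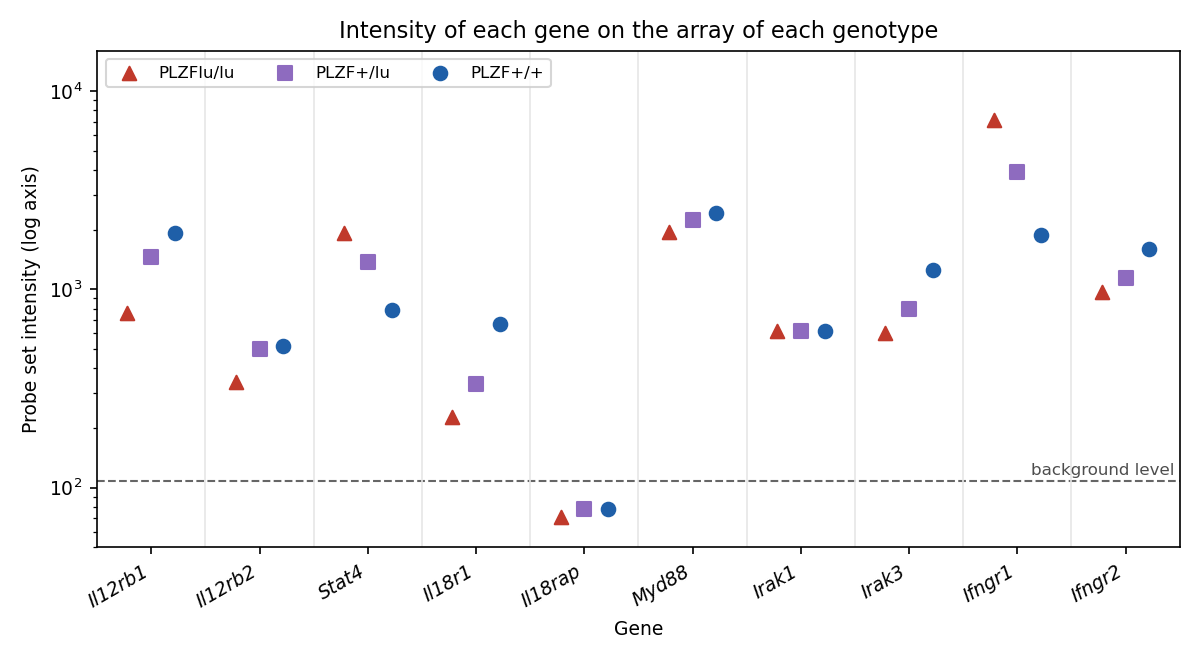
Probe set intensity of the 10 genes (log axis) on the single array of each genotype, with PLZFlu/lu as triangles, PLZF+/lu as squares and PLZF+/+ as circles. There are no error bars because each genotype has 1 array. Ifngr1 and Stat4 step down towards PLZF+/+, 6 others above the dashed background level of 108 step up, Irak1 is flat and Il18rap lies below the background.

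Il12rb1 encodes the chain that IL-12 shares with IL-23. Its intensity was 761 in PLZFlu/lu, 1451 in PLZF+/lu and 1917 in PLZF+/+. The mutant cells thus held 39.7% of the PLZF+/+ level, a log2 difference of -1.33. Only 0.225% of all genes differed by as much or more in either direction, and 31 genes lay further down. Il12rb2, the chain that carries the docking site for STAT4, was at 341 in PLZFlu/lu, 500 in PLZF+/lu and 516 in PLZF+/+, a log2 difference of -0.60 that stays under 2-fold. For both chains PLZF+/lu lay nearer to PLZF+/+ than to PLZFlu/lu. The step between PLZFlu/lu and PLZF+/lu made up 69.9% of the log2 difference for Il12rb1 and 92.3% for Il12rb2.

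Stat4, the transducer that IL-12 activates, differed in the opposite direction to the receptor. It was at 1933 in PLZFlu/lu, 1373 in PLZF+/lu and 787 in PLZF+/+, 2.46-fold higher in PLZFlu/lu (log2 difference 1.30). Among all genes 12 rose further. Measured on the same arrays, the log2 ratio of Stat4 to Il12rb1 was larger by 2.63 in PLZFlu/lu than in PLZF+/+, and that of Stat4 to Il12rb2 by 1.89. Such a ratio shows that the transcripts changed unequally and says nothing of protein.

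Il18r1 encodes the chain that binds IL-18. It was at 228 in PLZFlu/lu, 333 in PLZF+/lu and 667 in PLZF+/+, which is 34.2% of the PLZF+/+ level in PLZFlu/lu and a log2 difference of -1.55. It was the most reduced of the 10 genes, and 20 of all measured genes lay further down. Here most of the difference fell between PLZF+/lu and PLZF+/+, with a log2 step of -1.003 there and of -0.54 between PLZFlu/lu and PLZF+/lu. Il18rap, the accessory chain without which IL-18R1 does not signal, was at 71.2 in PLZFlu/lu, 77.7 in PLZF+/lu and 77.7 in PLZF+/+. All of these values lie under the background level, so no fold is given and a difference was not detectable at this level.

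Downstream of IL-18, the adaptor gene Myd88 stayed under 2-fold and the inhibitor gene Irak3 passed it. Myd88 was at 1957 in PLZFlu/lu, 2228 in PLZF+/lu and 2415 in PLZF+/+, a log2 difference of -0.30, and 5.22% of all genes differed as much. Irak1, the kinase recruited by MyD88, was listed at 615 on all 3 arrays. Identical values are common in these data. They occur for 46.8% of all genes and for 28.2% of the 2486 genes within 0.5 log2 units of Irak1 in mean level, so the equality of Irak1 is not specific to it. Irak3 was at 605 in PLZFlu/lu, 799 in PLZF+/lu and 1254 in PLZF+/+, 2.07-fold lower in PLZFlu/lu (log2 difference -1.05). Irak3 is known chiefly from monocytes and macrophages. The markers Lyz2, Csf1r, Adgre1 and Cd14 had values from 36.0 to 72.5 on all arrays, while Cd68 was at 386 on each and Itgam at 139, 152 and 164 in PLZFlu/lu, PLZF+/lu and PLZF+/+.

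The chains of the IFNγ receptor moved apart. Ifngr1, the ligand-binding chain, was at 7152 in PLZFlu/lu, 3906 in PLZF+/lu and 1872 in PLZF+/+. It was 3.82-fold higher in PLZFlu/lu, the only one of the 10 genes past 3-fold (0.123% of all genes), and its log2 difference of 1.93 was exceeded in that direction by 2 of all measured genes. Ifngr2, the chain needed to start the signal, was at 967 in PLZFlu/lu, 1135 in PLZF+/lu and 1602 in PLZF+/+, a log2 difference of -0.73 and so short of 2-fold. The log2 ratio of Ifngr1 to Ifngr2 within an array was larger by 2.66 in PLZFlu/lu than in PLZF+/+, a 6.33-fold change. It was larger by 1.56 in PLZF+/lu than in PLZF+/+ and by 1.10 in PLZFlu/lu than in PLZF+/lu. By comparison the ratio of Il12rb1 to Il12rb2 changed by -0.74, or 1.67-fold, between PLZFlu/lu and PLZF+/+.

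**Figure D2:**
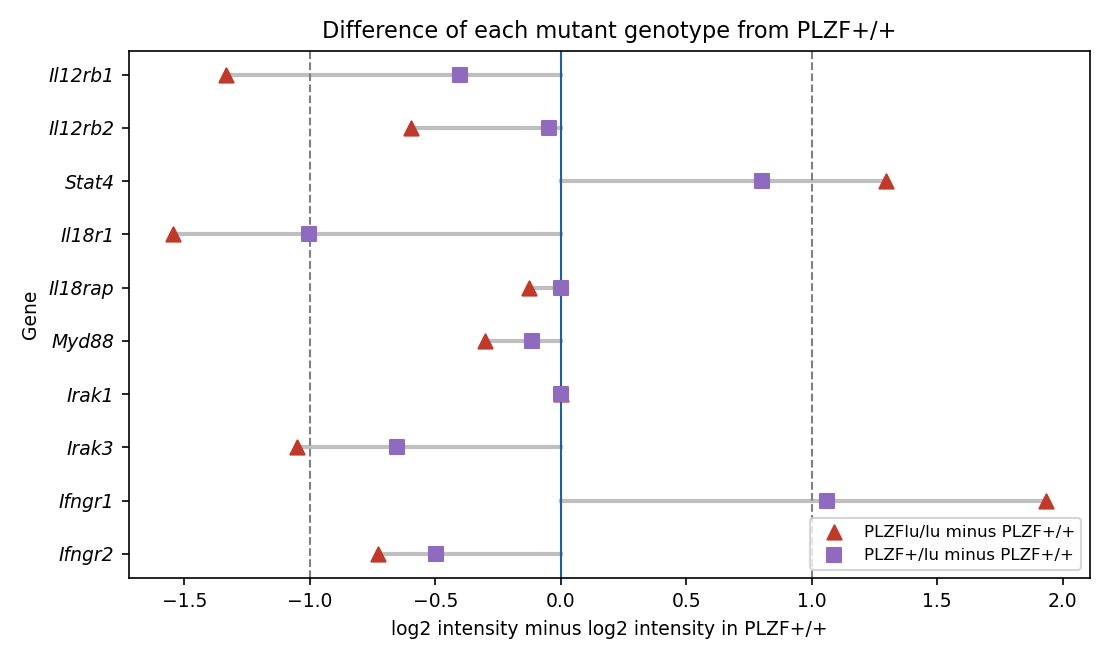
Difference of the log2 intensity of each gene from PLZF+/+ (vertical line at 0) in PLZFlu/lu (triangles) and PLZF+/lu (squares), with 2-fold marked by dashed lines. The square lies between the line and the triangle for 8 genes, coincides with the line for Il18rap and covers the triangle for Irak1.

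Heterozygous cells were intermediate for 8 of the 10 genes, where 11.4% of all genes had PLZF+/lu strictly between. Among the 280 genes that differed by over 1.5-fold between PLZFlu/lu and PLZF+/+ the share was 87.9%, and all 7 genes of the group past 1.5-fold (1.43% of all genes) were intermediate, so the group was much like other genes of that size. Its members differed in where the heterozygote lay. Taking the log2 distance from PLZFlu/lu to PLZF+/+ as 100%, PLZF+/lu stood at 31.8% for Ifngr2, 35.1% for Il18r1, 38.1% for Stat4, 38.2% for Irak3 and 45.1% for Ifngr1. It stood at 61.7% for Myd88, 69.9% for Il12rb1 and 92.3% for Il12rb2. Between PLZF+/lu and PLZF+/+ cells, Ifngr1 was 2.09-fold higher (0.0307% of all genes passed 2-fold in that direction) and Il18r1 2.004-fold lower in PLZF+/lu (0.102%), which makes 2 genes past 2-fold against 0.133% of all genes in either direction. The value of Il18r1 lies at the threshold and fell below it with quantile normalization, cyclic loess or 32 added to each intensity. Between PLZFlu/lu and PLZF+/lu none of the 10 passed 2-fold (0.123% of all genes), and the largest difference was that of Il12rb1, at 1.91-fold. The pairwise comparisons share arrays and are not independent of each other.

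**Figure D3:**
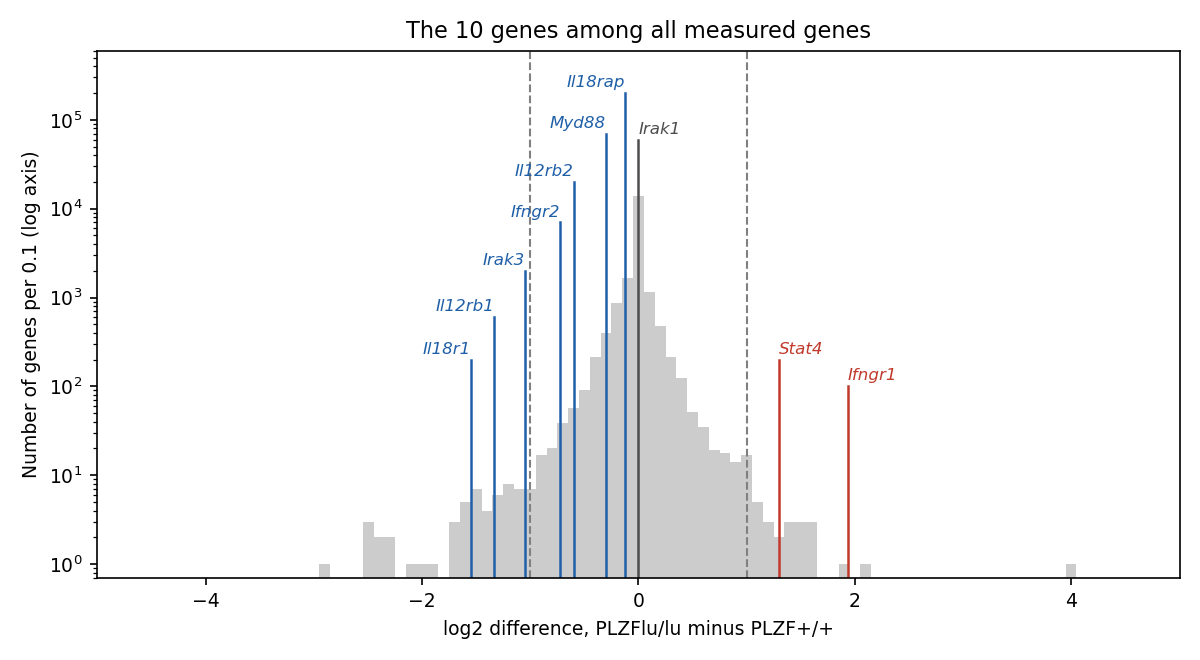
Number of genes (log axis) by log2 difference, PLZFlu/lu minus PLZF+/+, for all 19518 measured genes in grey, with dashed lines at 2-fold. Blue lines mark the genes of the group that were lower in PLZFlu/lu, red lines the higher ones and the dark line Irak1; line heights carry no value. Il18r1, Il12rb1 and Irak3 lie left of the dashed line and Stat4 and Ifngr1 right of it.

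Promoter windows from RefSeq on GRCm38.p6 were at hand for 9 of the 10 genes. None was at hand for Il12rb1, which was therefore not searched. The 250 bases before the transcript start were searched for TTCNNNGAA, the gamma-activated sequence (GAS) that STAT proteins can bind and that reads the same on both strands. It is found in 7.02% of all 32851 windows and in 3 of the 14 windows of these genes. Windows of a gene can overlap, as those of Irak1 and the first 2 of Il18r1 do, so the 14 are not separate. In the first listed window 7.18% of 27025 genes hold the GAS letters, and of the genes searched Il12rb2 and Myd88 do. The windows that hold these letters are shown because STAT4 is a member of the group, and those of the genes that were higher in PLZFlu/lu are set beside them. They are Il18r1 (its listed start 3) at chr1:40465756-40466005 on the plus strand, Il12rb2 at chr6:67376189-67376438 and Myd88 at chr9:119340019-119340268, both on the minus strand, Ifngr1 at chr10:19591699-19591948 and Stat4 (its listed start 1) at chr1:51986898-51987147, both on the plus strand. Sequences run 5′ to 3′ along the gene and capitals mark the GAS letters.
Il18r1: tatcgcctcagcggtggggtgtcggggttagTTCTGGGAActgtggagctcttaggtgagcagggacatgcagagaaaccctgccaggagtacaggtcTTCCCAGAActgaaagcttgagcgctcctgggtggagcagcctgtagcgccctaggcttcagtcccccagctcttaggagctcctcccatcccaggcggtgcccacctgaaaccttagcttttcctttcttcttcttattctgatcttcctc
Il12rb2: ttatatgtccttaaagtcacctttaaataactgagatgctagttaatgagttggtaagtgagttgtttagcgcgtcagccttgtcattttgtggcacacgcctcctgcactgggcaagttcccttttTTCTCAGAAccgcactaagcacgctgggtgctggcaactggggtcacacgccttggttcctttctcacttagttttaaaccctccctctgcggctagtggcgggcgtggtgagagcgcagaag
Myd88: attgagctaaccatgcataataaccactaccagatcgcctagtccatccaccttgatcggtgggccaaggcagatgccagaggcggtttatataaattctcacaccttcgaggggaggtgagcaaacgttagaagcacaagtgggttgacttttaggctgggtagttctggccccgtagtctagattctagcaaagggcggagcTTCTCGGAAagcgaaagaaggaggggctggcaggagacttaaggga
Ifngr1: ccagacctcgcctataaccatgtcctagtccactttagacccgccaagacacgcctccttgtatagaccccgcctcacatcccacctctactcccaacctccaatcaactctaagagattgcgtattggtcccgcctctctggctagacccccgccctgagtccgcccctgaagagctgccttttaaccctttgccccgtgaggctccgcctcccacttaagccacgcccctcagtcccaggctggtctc
Stat4: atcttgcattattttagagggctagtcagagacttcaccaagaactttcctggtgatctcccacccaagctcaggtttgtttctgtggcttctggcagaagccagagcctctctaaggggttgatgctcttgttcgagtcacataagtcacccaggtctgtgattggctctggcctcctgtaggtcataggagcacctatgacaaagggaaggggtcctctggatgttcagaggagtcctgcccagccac
Il18r1 has 2 matches, which begin 219 and 152 bases before the start, and its other 2 listed windows have none. The match of Il12rb2 begins 123 bases and that of Myd88 46 bases before the start. All 3 of these genes had their lowest intensity in PLZFlu/lu, although Il12rb2 and Myd88 stayed under 2-fold. The letters are absent from the windows of Ifngr1 and Stat4, which were higher in PLZFlu/lu. They are equally absent from those of Irak3 and Ifngr2, which were lower, and of Irak1 and Il18rap. The letters thus do not divide the 9 genes searched by direction. The windows of Ifngr1 and Ifngr2 hold 59.2% and 74.0% G and C, where the median of 27025 genes was 52.0%. The 5th and 95th percentiles were 34.8% and 73.6%, so the value of Ifngr1 lies within the usual range. Irak3 stood at 66.4% and 47.6% in its listed windows. A match of letters is a description of the window and not evidence of a bound site.

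No other listed gene of these pathways passed the size rule. In 8 lists of other pathway genes, which hold 135 measured genes and 93 above background on every array, none differed by more than 2-fold between PLZFlu/lu and PLZF+/+ (0.43% of all genes), and 6 differed by more than 1.5-fold (1.43% of all genes). Of these 6, Irf4 and Tnf were below background in PLZFlu/lu. In all 44 were lower in PLZFlu/lu to some degree, 29 were higher and 62 were equal, with a median log2 difference of 0.00. The shares of all genes were 24.9% lower, 16.9% higher and 58.1% equal. Smaller differences cannot be judged without replicates.

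**Figure D4:**
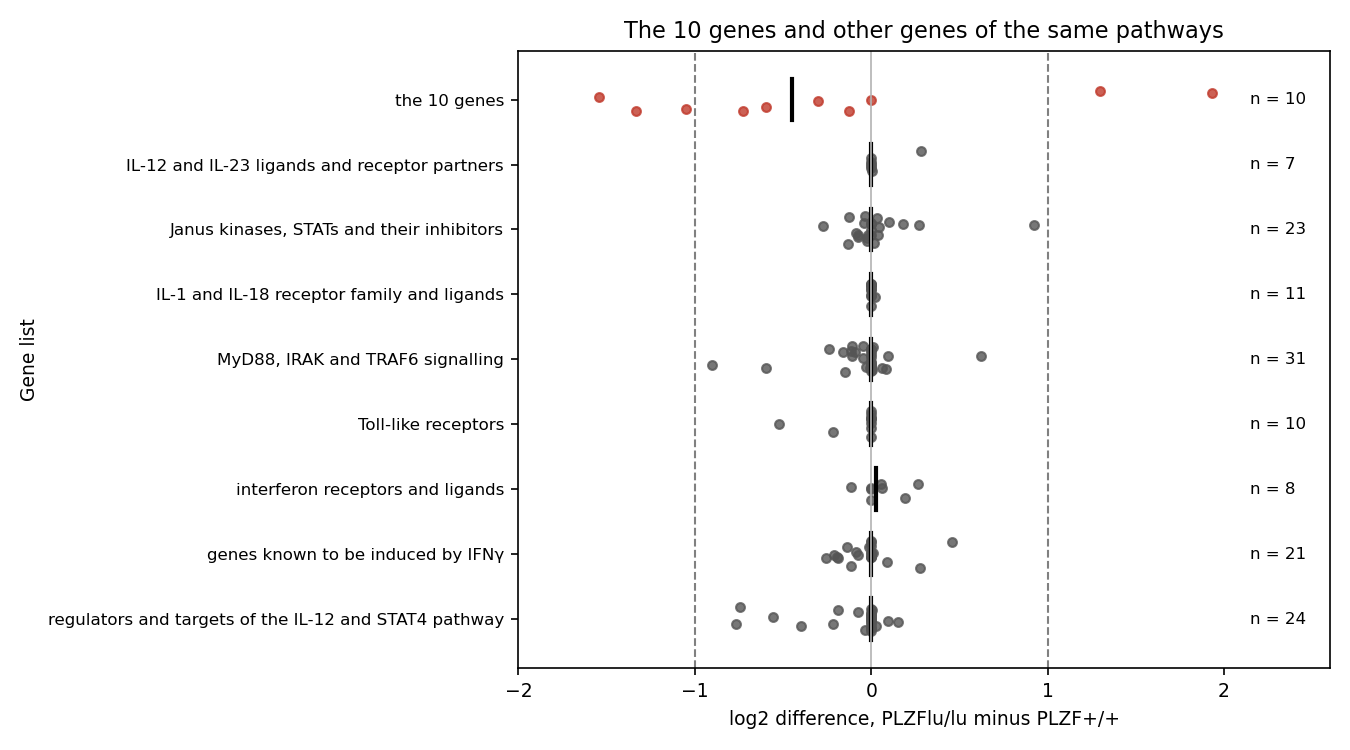
Log2 difference, PLZFlu/lu minus PLZF+/+, of the 10 genes (red, top) and of the measured genes of 8 other lists (grey), each point 1 gene with random vertical spread, black bars the medians and dashed lines 2-fold. Of the 10 genes 5 lie beyond the dashed lines, and no gene of the other lists does. The 10 genes and the lists were chosen with earlier results known, so this contrast is partly set by that choice.

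Among 23 measured Janus kinases, STATs and their inhibitors, 11 were lower in PLZFlu/lu, 8 higher and 4 equal. Cish, an inhibitor induced by STAT5, showed the largest difference, at 736 in PLZFlu/lu, 389 in PLZF+/lu and 389 in PLZF+/+ (1.89-fold). Jak1, the kinase bound to IFNGR1, was at 10522 in PLZFlu/lu, 9809 in PLZF+/lu and 8704 in PLZF+/+. The phosphatase gene Ptpn6 was at 1776 in PLZFlu/lu, 1806 in PLZF+/lu and 2146 in PLZF+/+. Jak2 and Tyk2 encode the kinases of the IL-12 receptor. Jak2 was at 2677 in PLZFlu/lu, 2535 in PLZF+/lu and 2361 in PLZF+/+, and Tyk2 at 811, 802 and 811 in the same order.

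Of 31 measured genes of MyD88, IRAK and TRAF6 signalling 13 were lower in PLZFlu/lu, 6 higher and 12 equal, and 3 passed 1.5-fold. Tirap, a bridging adaptor that brings MyD88 to Toll-like receptors, was at 141 in PLZFlu/lu, 162 in PLZF+/lu and 264 in PLZF+/+, 1.87-fold lower in PLZFlu/lu. Peli1, an E3 ubiquitin ligase that acts on IRAK proteins, was at 6850 in PLZFlu/lu, 5711 in PLZF+/lu and 4443 in PLZF+/+. Tnfaip3, which encodes the NF-κB inhibitor A20, was at 695 in PLZFlu/lu, 1369 in PLZF+/lu and 1049 in PLZF+/+, so that the heterozygote was highest. Traf6 itself was at 1615 on all arrays. Among 10 measured Toll-like receptor genes 2 were lower in PLZFlu/lu and 8 equal, and 4 of the 10 were below background on all arrays. The largest difference was that of Tlr1, at 1106 in PLZFlu/lu, 1237 in PLZF+/lu and 1593 in PLZF+/+. The IL-1 and IL-18 receptor family had 11 measured genes, of which 10 were equal and Sigirr, an inhibitory receptor, differed by 1.02-fold. Of the 11, 7 were below background on all arrays, so their equality does not show an unchanged level.

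The remaining lists concern ligands, interferon receptors and genes downstream. Of 7 genes of IL-12 and IL-23 ligands and receptor partners 5 were below background on all arrays, and Il27 was at 453 in PLZFlu/lu, 375 in PLZF+/lu and 373 in PLZF+/+. Of 8 interferon receptor and ligand genes 4 were higher in PLZFlu/lu, 1 lower and 3 equal, and 4 of the 8 were below background on all arrays. Ifnar2, a chain of the receptor for type I interferons, was at 2411 in PLZFlu/lu, 2111 in PLZF+/lu and 2003 in PLZF+/+, and Ifng was below background on every array. Among 21 measured genes that IFNγ is known to induce, 9 were lower in PLZFlu/lu, 4 higher and 8 equal, with a median log2 difference of 0.00. Of the 21, 5 were below background on all arrays. Nlrc5, an activator of MHC class I genes, was at 2709 in PLZFlu/lu, 3089 in PLZF+/lu and 1970 in PLZF+/+, and the guanylate-binding protein gene Gbp4 was at 2874, 2886 and 2373 in the same order. Among 24 measured regulators and targets of the IL-12 and STAT4 pathway 8 were lower in PLZFlu/lu, 4 higher and 12 equal. Of the 24, 10 were below background on all arrays. Irf4, a transcription factor of activated T cells, was at 79.3 in PLZFlu/lu, 95.8 in PLZF+/lu and 135 in PLZF+/+, and Tnf was at 101, 124 and 170. The PLZFlu/lu values of both and the PLZF+/lu value of Irf4 lie under the background level of 108, so their folds are uncertain. Tbx21, which encodes the IFNγ-driving factor T-bet, was below background on every array, at 72.7.

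For each of the 5 genes past 2-fold the nearest patterns were sought among 11144 other named genes above background on every array, by the Euclidean distance between centred log2 values over the 3 arrays. With so few arrays many genes share a shape, and the order of the distances is a description only. Nearest to Il12rb1 were Oas3 (distance 0.054), Cd40lg (0.15) and Id2 (0.15). Oas3, an antiviral gene that interferons induce, was at 357 in PLZFlu/lu, 649 in PLZF+/lu and 862 in PLZF+/+. Nearest to Il18r1 were Tfcp2l1 (0.064), Zbtb7b (0.092) and Smtn (0.10). Zbtb7b, which encodes the CD4 lineage factor ThPOK, was at 125 in PLZFlu/lu, 179 in PLZF+/lu and 335 in PLZF+/+. Nearest to Irak3 were Cfap74 (0.050), Susd2 (0.055) and Gnaq (0.061). The patterns nearest to Stat4 were those of Phxr4 (0.083), Cd8b1 (0.084) and Tsc22d3 (0.11), a glucocorticoid-induced gene at 762 in PLZFlu/lu, 484 in PLZF+/lu and 295 in PLZF+/+. The nearest to Ifngr1 lay further off, namely Sec61b (0.22), Fgl2 (0.32) and Bach2 (0.34).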

How the data were processed

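Per the paper's methods, the authors ran GenePattern (its modules ExpressionFileCreator, MultiplotPreprocess and Multiplot) and removed normalization controls. They deposited 1 linear intensity per probe set (24800 on each array). The submitters' notes name the build mm 8, but how background was corrected and probes were summarised and scaled is not stated there or in the methods. All 3 value columns carry a sample's name.

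Intensities were used as deposited, on the log2 scale and without a pseudocount. Genes were named from the platform annotation, updated to GRCm38.p6 symbols, for the 21065 probe sets with exactly 1 gene, of which the brightest stood for a gene. Log2 differences within 1e-06 were taken as equal. No test was run, since each genotype has 1 array, and precision is limited by their number. Named genes are the 10 of the group, at most the 3 with the largest difference in each pathway list among those above background on at least 1 array, defining markers and the 3 most like patterns, and other genes were named after their values were seen. The members and lists were chosen with earlier results of these data known. The alternatives were quantile normalization, median centring, cyclic loess, adding 32, another or the mean probe set, the mean of PLZF+/+ and PLZF+/lu as baseline, leaving out dim genes, and thresholds of 1.5-fold and 3-fold. The counting was tested on simulated data. Python 3.11.15, numpy 2.4.6, pandas 2.3.3, matplotlib 3.10.9, R 4.3.3 and limma 3.58.1 were used. Flow cytometry, qPCR and cytokine assays of the study were not analysed here.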

Additional observations from a re-analysis of the deposited data

How the results depend on the processing

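Under the scalings tried (quantile normalization, median centring, cyclic loess) no log2 difference of the 10 genes between PLZFlu/lu and PLZF+/+ moved by more than 0.045, and with 32 added none that passed 2-fold lost its call or direction. The deposited array medians already lay between 159.7 and 161.8, so the scalings had little to change. They do not test the authors' own processing, which is not known in full. Each of the 10 has 1 probe set, so the other probe set choices could not change them. With PLZF+/lu averaged into the PLZF+/+ baseline, 3 of the 10 passed 2-fold in place of 5, with Stat4 at 0.89 and Irak3 at -0.73, and 41 of all genes did in place of 84. That baseline shrinks any difference with an intermediate heterozygote. At 3-fold 1 of the 10 and 24 of all genes passed, and at 1.5-fold 280 of all genes. Between PLZFlu/lu and PLZF+/lu 2 passed at 1.5-fold in place of 0 (0.533% of all genes). Between PLZF+/lu and PLZF+/+ the count of 2 became 1 with quantile normalization, with cyclic loess and with 32 added, as Il18r1 fell below the line, and it was 4 at 1.5-fold (0.794% of all genes) and 0 at 3-fold (0.0205%). In the 8 pathway lists the count past 2-fold stayed 0 under each scaling, added value, probe set choice, baseline and filter on dim genes, and 6 of their 135 genes passed 1.5-fold. No paired analysis was possible because each genotype has 1 array. Il18rap lies below background, which bounds what can be said of it.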

Other observations

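The genes next to the 5 past 2-fold were read in the gene order of GRCm38.p6, taking 3 protein-coding genes on each side. Of the 30 neighbours 25 were measured and 15 were above background on every array. None differed by more than 2-fold between PLZFlu/lu and PLZF+/+ (0.43% of all genes), and 3 differed by more than 1.5-fold (1.43% of all genes). Ifi30, a lysosomal thiol reductase gene near Il12rb1, was at 696 in PLZFlu/lu, 759 in PLZF+/lu and 1118 in PLZF+/+. Ccdc124, on the other side of Il12rb1, was at 206, 225 and 316 in the same order. Tnfaip3 is the second gene before Ifngr1 and had its highest value in PLZF+/lu. The cytokine receptor genes Il22ra2 and Il20ra, which follow Ifngr1, were below background on all arrays. Il18rap, itself a gene of the group, directly follows Il18r1 and is counted among the 25. Further from Il18r1, Il1rl2 was at 454 on every array and Slc9a4 and Slc9a2 were below background.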
